A study of Mus musculus with 8 samples.

Results

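The interferon regulatory factors (IRFs) are a family of transcription factors that share a DNA-binding domain at the amino terminus and bind DNA with repeated GAAA letters. The 8 genes described here, Irf1, Irf2, Irf3, Irf4, Irf5, Irf7, Irf8 and Irf9, were chosen by name as members of the family, and all 8 had probe sets, 14 in all, among the 18194 genes with a single symbol on the array. RNA was measured on 8 one-colour Affymetrix arrays, 1 per newborn mouse brain, after pulling microvessel fragments with their attached pericytes out of dissociated brains with beads that carry an antibody against PECAM, an endothelial surface protein. The 4 mutant brains carried the PDGFRb (D849V) knock-in allele, which makes PDGF receptor beta of pericytes signal without its ligand, and the 4 control brains were wild type. A knock-in allele is active in every cell that expresses Pdgfrb. All mice were at postnatal day 1 and of a 129S/J mixed background. Whether 1 or both Pdgfrb alleles carried the substitution is not given in the sources used here. Values are log2 expression as deposited (GCRMA), so a step of 1 is a doubling, and values near the lowest one in the table, 2.18, are a floor that carries no order.

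IRFs act at both ends of the interferon response. Sensors of viral or misplaced nucleic acid activate kinases that phosphorylate Irf3 and Irf7, which then switch on the genes of type I interferons. Secreted interferon acts through its receptor on the STAT proteins, and Irf9 works with Stat2 in the complex ISGF3, which binds interferon-stimulated response elements (ISREs). Irf1 is induced by interferon through gamma-activated sites (GAS) and activates antigen presentation genes, while Irf2 binds the same DNA elements and can oppose it. Irf8 is required for microglia and other myeloid cells, Irf5 works downstream of Toll-like receptors in such cells, and Irf4 is best known from lymphocytes and dendritic cells.

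Of the 8 members, 4 rose in mutant microvessels: Irf7, Irf8, Irf1 and Irf9. Irf2, Irf3 and Irf5 did not pass the test, no member fell, and Irf4 lay at the floor on every array. The question is how vessels of the newborn brain differ when PDGF receptor beta is constantly switched on. Each gene was tested with limma over all 11446 genes bright enough, with a threshold of 0.05 on the Benjamini-Hochberg adjusted p. On that test 2.66% of all tested genes were higher and 1.92% lower in mutants, 4.58% in either direction, against 4 of the 7 tested members higher. After the median of every array was set equal, the genes over the whole table split into 336 higher and 115 lower, against 304 higher and 220 lower as deposited. The median difference of the 7 tested members was 1.87 on the log2 scale, beside -0.11 for all tested genes.

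**Figure D1:**
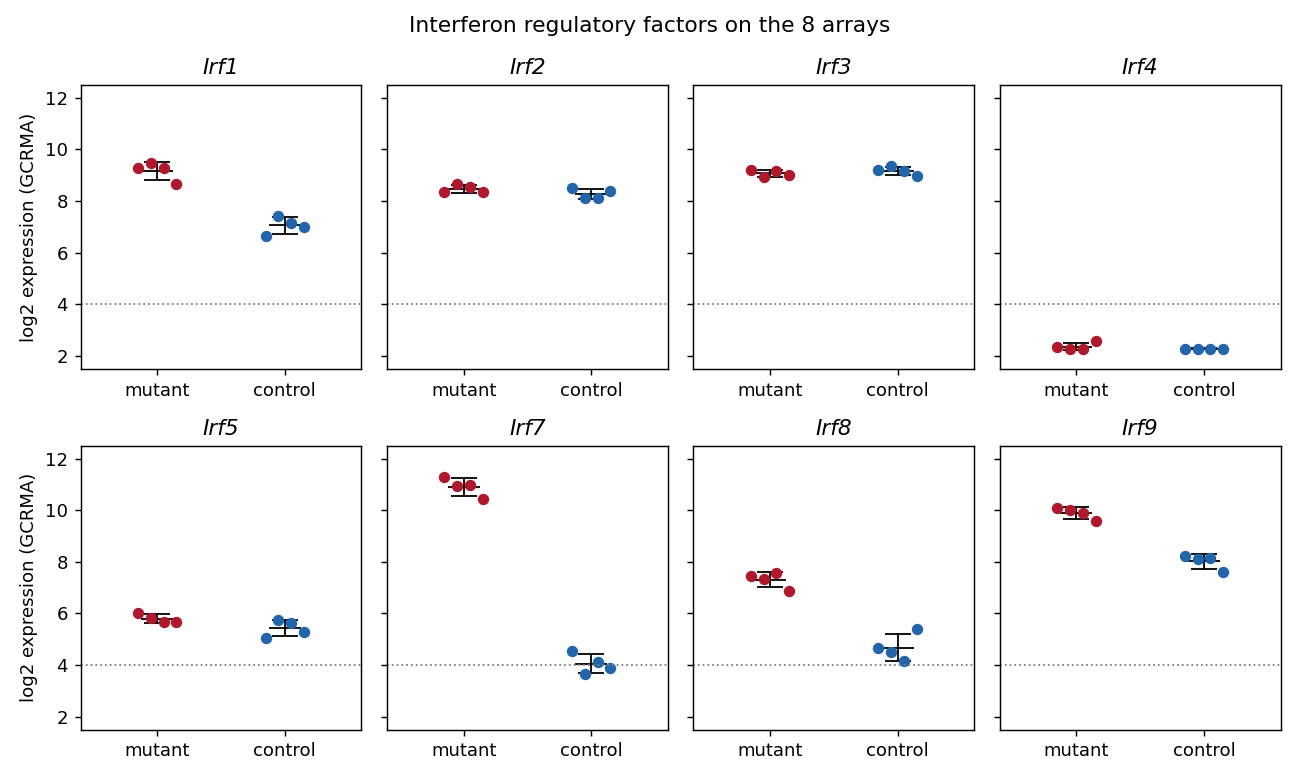
Log2 expression of the 8 interferon regulatory factors on each array, mutant left and control right in every panel; points are single brains, the bar is the mean with its SD (n = 4), and the dotted line marks the filter level of 4. The groups stand apart in Irf1, Irf7, Irf8 and Irf9, and Irf4 stays near 2.3 in both.

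Irf7, the inducible activator of interferon genes, had the largest difference in the family. Its log2 expression was 11.27, 10.94, 10.96 and 10.43 on mutant arrays 1 to 4, against 4.54, 3.66, 4.14 and 3.88 on control arrays 1 to 4. Every mutant array lay at least 5.88 above every control array, and array 4 was the lowest of the mutants. The difference was 6.84 (SE 0.228, limma adjusted p = 7.42e-07), a 115-fold change with a 95% interval from 79.9-fold to 165-fold, and it ranked 10 by size among all tested genes. The control values lay close to the filter level, where GCRMA values are least resolved, so the size of the fold rests on dim control readings. In bulk RNA such as this, a change in the number of cells of a type and a change in the RNA per cell cannot be told apart, and this holds for each rise given here.

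Irf3, which is present before infection and acts beside Irf7, gave no such difference. Its brightest probe set, whose suffix marks probes that may bind other transcripts, read 9.20, 8.92, 9.18 and 9.03 in mutants and 9.19, 9.36, 9.17 and 8.99 in controls. The groups overlapped, and the difference was -0.09 (95% interval -0.34 to 0.16, limma adjusted p = 0.657). The second probe set of Irf3 read 7.80, 7.17, 7.06 and 6.90 in mutants and 7.30, 7.41, 6.94 and 7.06 in controls. It differed by 0.05, with an adjusted p = 0.918 from limma with every probe set tested singly. Another, dimmer one read 4.76, 5.25, 4.95 and 4.01 in mutants against 5.24, 5.92, 5.77 and 5.54 in controls. It was lower by more than the others, at -0.88, but its adjusted p of 0.168 in the same limma fit missed the threshold, and the fourth lay at the floor. Set against Irf3 within each array, the log2 difference Irf7 minus Irf3 was 1.81 ± 0.31 in mutant arrays, against -5.12 ± 0.43 in control arrays (SD, 4 arrays each). The offset between the probe sets cancels when the groups are compared. The difference between groups of 6.93 had an exact two-sided permutation p = 0.0286, the smallest that the 70 assignments of arrays allow. Adjusted over the 3 pairs compared, this permutation p was 0.0429. Irf7 alone parted the groups by at least 5.88, while Irf3 ran from 8.92 to 9.36, so the Irf7 values fixed this outcome. It restates the rise of Irf7, and the pairs were chosen with earlier results of these data known.

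Irf5, another member that Toll-like receptor signals activate, did not pass. It read 6.03, 5.83, 5.68 and 5.68 in mutants against 5.06, 5.73, 5.65 and 5.28 in controls, and the ranges met between 5.68 and 5.73. The difference was 0.37 (95% interval -0.01 to 0.75, limma adjusted p = 0.249). Its second probe set lay at the floor on all 8 arrays.

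Irf9, the DNA-binding subunit of ISGF3, rose 3.66-fold (95% interval 2.79 to 4.79). Its log2 expression was 10.09, 10, 9.90 and 9.57 in mutants, against 8.24, 8.10, 8.14 and 7.59 in controls. The lowest mutant array lay 1.33 above the highest control, and the difference was 1.87 (SE 0.170, limma adjusted p = 0.000322). Stat2, its partner in ISGF3, read 7.67, 7.95, 6.97 and 4.62 in mutants against 5.07, 2.84, 3.59 and 3.96 in controls. Mutant array 4 stood below control array 1, and Stat2 did not pass (difference 2.94, limma adjusted p = 0.0738). Irf9 minus Stat2 was 3.09 ± 1.29 in mutant arrays, against 4.15 ± 0.94 in control arrays (SD, 4 arrays each), a change within the spread (exact two-sided permutation p = 0.229, also after adjustment over the 3 pairs). The arrays that were low for Stat2 were low for other genes too, a pair named here after their values were seen: the endothelial adhesion molecule Pecam1 and the adhesion molecule Mcam, counted here among mural markers, were lower on mutant array 4 than on the other mutants, by -1.92 and -1.48, and higher on control array 1 than on the other controls, by 1.81 and 1.24. Irf9 moved the same way by less, at -0.43 and 0.29. The part of this shared deviation in the result for Stat2 was not tested.

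Irf1 rose 4.33-fold (95% interval 3.10 to 6.06). It read 9.28, 9.46, 9.29 and 8.68 in mutants, against 6.66, 7.44, 7.16 and 7.0 in controls, with a gap of 1.24 between the groups. The difference was 2.12 (SE 0.211, limma adjusted p = 0.000575). Irf2, which can occupy the same sites, read 8.35, 8.68, 8.53 and 8.37 in mutants and 8.5, 8.11, 8.12 and 8.41 in controls. These overlapped, with a difference of 0.20 (95% interval -0.09 to 0.48, limma adjusted p = 0.405), from a single probe set whose suffix marks probes shared between transcripts. Within arrays, Irf1 minus Irf2 was 0.70 ± 0.27 in mutants, against -1.22 ± 0.51 in controls (SD, 4 arrays each). That change of 1.92 in the balance of the pair had an exact two-sided permutation p = 0.0286, the smallest possible, and 0.0429 adjusted over the 3 pairs. The gap of 1.24 in Irf1 was wider than the range of Irf2, 8.11 to 8.68, so this p-value too only restates the rise of Irf1.

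Irf8 rose 6.20-fold (95% interval 4.07 to 9.46). It read 7.47, 7.33, 7.55 and 6.88 in mutants, against 4.65, 4.49, 4.15 and 5.40 in controls. The groups were 1.48 apart, control array 4 was the highest of its group, and the difference was 2.63 (SE 0.266, limma adjusted p = 0.000603). Its second, dimmer probe set read 4.70, 5.44, 4.68 and 2.78 in mutants and 2.78, 2.41, 2.25 and 2.18 in controls. On that one only 3 arrays, all mutant, rose above the filter level, mutant array 4 was level with the highest control, and no test was made. Irf4, the other member that pairs with PU.1, read 2.35, 2.26, 2.29 and 2.57 in mutants and 2.29, 2.29, 2.29 and 2.28 in controls on its brighter probe set. All 8 values lay at the floor, as did those of its second probe set, so no difference between Irf8 and Irf4 was tested.

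**Figure D2:**
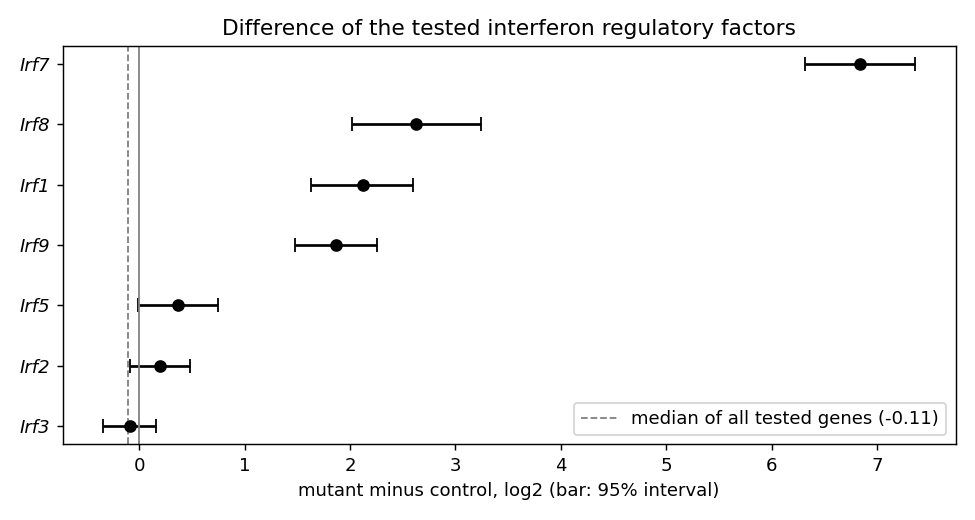
Mutant minus control difference (log2) of the 7 tested interferon regulatory factors, with 95% intervals from limma; the dashed line is the median of all tested genes, -0.11. The intervals of Irf7, Irf8, Irf1 and Irf9 lie above 1, and those of Irf5, Irf2 and Irf3 include 0.

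In each of the 4 members that rose, the lowest mutant value was that of array 4, which stood below the mean of the other mutants (differences of -0.67 in Irf1, -0.63 in Irf7, -0.58 in Irf8 and -0.43 in Irf9). The order of control arrays was not shared: the highest control was array 1 for Irf7 and Irf9, array 2 for Irf1 and array 4 for Irf8. All mutant arrays exceeded all control arrays in these 4 members and in 4.07% of all tested genes.

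**Figure D3:**
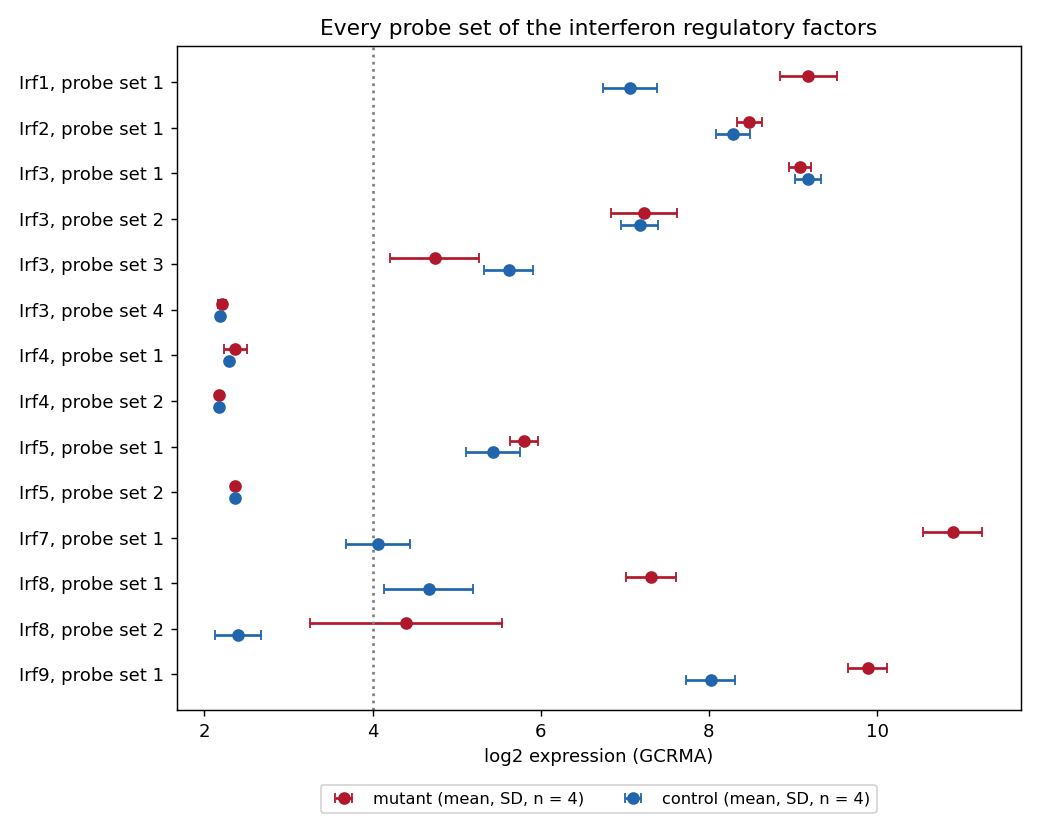
Mean log2 expression with SD (n = 4) of each of the 14 probe sets of the family, mutant above control in every row, ordered by brightness within a gene; the dotted line marks the filter level of 4. Of the 14 probe sets, 9 passed the filter, and the probe sets of Irf3 disagree in size while none of them passed the test.

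The promoters of the members show which of them hold the DNA letters that interferon signalling is known to use. RefSeq promoter entries (build GRCm38.p6) were found for all 8 members, 11 in all since 3 members have 2 starts, and the 250 bases before each start were searched on both strands. The ISRE core was searched as GAAANNGAA, the GAS as TTCNNNGAA, which reads the same on both strands, and the shorter IRF element as AANNGAAA, which can overlap the ISRE core. A GAS match stood in 3 of the 11 member entries, those of Irf1, Irf8 and Irf2, against 7.02% of all 32851 promoters. An ISRE core match stood in 1 of the 11 entries, that of Irf2, where it overlaps an IRF element. The shares of all promoters were 7.13% for the core and 21.3% for the element. The promoters of Irf3, Irf4, Irf5, Irf7 and Irf9 held none of these letters in that window. Sequences are given for the members that hold a match and, for contrast, for the member that rose most; each stops before the outermost annotated start of its gene, so that only the first 175 of the 250 bases searched are printed for Irf7, and capitals mark ISRE core and GAS matches.
Irf1, chr11:53769764-53770013, plus strand: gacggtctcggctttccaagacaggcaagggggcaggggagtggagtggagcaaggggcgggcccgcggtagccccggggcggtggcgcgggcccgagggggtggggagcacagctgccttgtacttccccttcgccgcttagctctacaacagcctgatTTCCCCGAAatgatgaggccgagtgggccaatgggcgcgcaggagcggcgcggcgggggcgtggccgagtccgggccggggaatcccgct
Irf8, chr8:120736108-120736357, plus strand: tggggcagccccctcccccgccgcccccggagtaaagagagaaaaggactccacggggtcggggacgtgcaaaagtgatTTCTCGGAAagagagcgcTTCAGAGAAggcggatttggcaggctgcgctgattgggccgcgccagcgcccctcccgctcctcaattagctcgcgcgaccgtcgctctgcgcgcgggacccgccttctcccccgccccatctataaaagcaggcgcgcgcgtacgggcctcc
Irf2, chr8:46739495-46739744, plus strand: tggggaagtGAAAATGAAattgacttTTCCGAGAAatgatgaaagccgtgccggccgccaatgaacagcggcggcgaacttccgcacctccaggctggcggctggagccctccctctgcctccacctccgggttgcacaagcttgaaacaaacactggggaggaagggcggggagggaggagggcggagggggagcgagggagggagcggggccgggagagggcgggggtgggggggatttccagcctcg
Irf7, chr7:141266500-141266674, minus strand: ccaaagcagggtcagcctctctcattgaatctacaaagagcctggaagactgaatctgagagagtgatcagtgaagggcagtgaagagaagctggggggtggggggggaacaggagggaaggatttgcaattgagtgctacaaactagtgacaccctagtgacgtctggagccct

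In Irf1 the single GAS begins 90 bases before the start, and in Irf8 a pair of them begin 171 and 153 bases before it. Both genes rose. Irf2, which did not pass the test, holds an ISRE core 241 bases and a GAS 224 bases before its start. Irf7, with the largest difference, had no match in the 250 bases searched, of which 175 are shown, and this says only that these letters are not in that window.

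Genes that IRFs are known to bind show what the element looks like where it is present. Windows around the ISRE core of Cxcl10, a chemokine, Ifit1, an antiviral RNA-binding protein, and Gbp2, a guanylate-binding protein, are given in the same build.
Cxcl10, chr5:92349078-92349117, minus strand: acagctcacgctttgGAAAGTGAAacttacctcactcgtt
Ifit1, chr19:34640765-34640828, plus strand: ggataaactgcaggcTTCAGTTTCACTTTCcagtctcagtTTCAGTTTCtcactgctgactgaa
Gbp2, chr3:142620589-142620628, plus strand: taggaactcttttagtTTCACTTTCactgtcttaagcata

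The ISRE core of Cxcl10 begins 213 bases before the start and that of Gbp2 58 bases before it, while Ifit1 has 3 of them, at 109, 103 and 84 bases. Of the 20 known IRF target genes listed, 19 had a probe set, 15 were bright enough to test, 14 rose and none fell, with a median difference of 4.79. Lists such as this were assembled with earlier results of these data known, so the count describes them and supports nothing else. Ifit1 averaged 11.86 ± 0.19 in mutants, against 3.33 ± 0.25 in controls (SD, 4 arrays each), at least 232-fold higher against the filter level. Psmb8, a subunit of the immunoproteasome, averaged 11.70 ± 0.17 in mutants and 6.58 ± 0.10 in controls, 34.8-fold higher. Tap1, which moves peptides to MHC class I, averaged 10.30 ± 0.05 in mutants and 5.50 ± 0.15 in controls, 27.7-fold higher (SD, 4 arrays each, limma adjusted p at most 3.64e-08 for the 3 genes). The target that was tested and did not pass was Prdm1, a repressor known as a target of Irf4, at a difference of 0.00 (limma adjusted p = 0.999), and it is named here because it was the only one. Ciita, Il12b, Il6 and Socs1 were under the filter.

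The sensors and kinases that activate Irf3, Irf5 and Irf7 changed in part. Of 18 listed, 16 had a probe set and 14 were tested. Rises were found in 4 and falls in 0, with a median of 0.35. Dhx58, a regulator of RNA sensing, averaged 8.97 ± 0.40 in mutants, against 3.43 ± 0.05 in controls (SD, 4 arrays each), at least 31.4-fold higher. Ifih1, a sensor of long double-stranded RNA, averaged 11.57 ± 0.15 in mutants and 8.21 ± 0.16 in controls, 10.3-fold higher. Tlr3, the Toll-like receptor of double-stranded RNA, averaged 9.76 ± 0.19 in mutants and 8.26 ± 0.05 in controls, 2.82-fold higher (SD, 4 arrays each, limma adjusted p at most 6.42e-05 for the 3 genes). The fourth was the RNA sensor Ddx58, at a difference of 1.80 (limma adjusted p = 6.7e-05). The other 10 tested did not pass. Among these were the DNA sensing genes Sting1 (difference 1.38, limma adjusted p = 0.0976) and Cgas (0.70) and the adaptor Myd88 (0.43, limma adjusted p = 0.0762). The receptor Tlr4 (0.12), the kinases Tbk1 (0.05), Ikbke (0.27) and Irak1 (0.01) and the adaptors Mavs (-0.17), Traf6 (-0.03) and Ticam1 (-0.20) made up the rest, and the Toll-like receptors Tlr7 and Tlr9 were under the filter.

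Interferon genes themselves, the products that Irf3 and Irf7 are known to switch on, were dim. Of 12 listed, 9 had a probe set, and 6 of these, among them Ifng and 5 of the alpha family or its relatives, lay at the floor on all 8 arrays. Ifnb1 read 2.72 on mutant array 4 and 2.18 on the other 7. The 2 brightest were Ifnz, at 5.47 ± 0.39 in mutants, against 5.38 ± 0.60 in controls (SD, 4 arrays each, limma adjusted p = 0.887), and Ifna5, under the filter at 2.58 ± 0.17 in mutants and 2.47 ± 0.04 in controls. Ifnz was the only one bright enough to test.

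**Figure D4:**
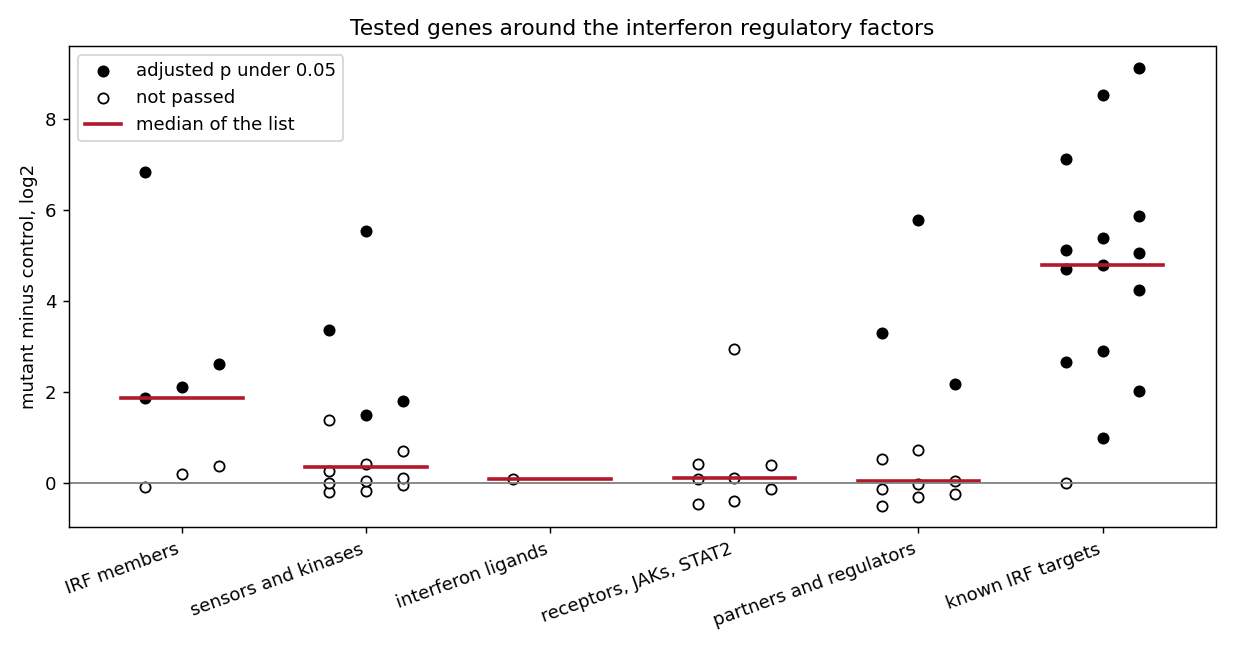
Mutant minus control difference (log2) of each tested gene in the family and in 5 pathway lists; filled points passed the test, open points did not, and the red bar is the median of the list. The known targets have a median of 4.79 and the sensors and kinases 0.35, while the other 3 pathway lists have medians from 0.06 to 0.11.

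None of the 8 tested genes for interferon receptors, Janus kinases and Stat2 passed, with a median of 0.11. Ifnar1, a chain of the type I interferon receptor, read 9.68, 9.33, 9.39 and 9.53 in mutants against 9.77, 10.05, 9.95 and 9.96 in controls. Each mutant array lay below each control array, but the difference of -0.45 had a limma adjusted p = 0.0553. The share of all tested genes with every mutant array below every control array was 10.4%. Ifnar2, the other chain, averaged 10.61 ± 0.16 in mutants, against 10.50 ± 0.18 in controls (SD, 4 arrays each, limma adjusted p = 0.640). Several settings moved 1 of these genes across the threshold, as did leaving out mutant replicate 4, which gave 1 rise, or mutant replicate 1, which gave 1 fall.

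Among partners, coactivators and regulators of IRF proteins, 3 rose and 0 fell out of 11 tested, with a median of 0.06. Batf2, which is known to work with Irf1 in macrophages, averaged 5.49 ± 0.20 in mutants (SD, n = 4) and was at the floor on all control arrays, at least 2.81-fold higher. Usp18, an inhibitor of interferon receptor signalling, averaged 12.24 ± 0.28 in mutants and 6.45 ± 0.70 in controls, 55.3-fold higher. Trim21, a ubiquitin ligase that acts on IRF proteins, averaged 8.37 ± 0.39 in mutants and 6.19 ± 0.09 in controls, 4.55-fold higher (SD, 4 arrays each, limma adjusted p at most 0.000176 for the 3 genes). The coactivators Crebbp (-0.49) and Ep300 (-0.30) and the Irf2-binding proteins Irf2bp1 (-0.13), Irf2bp2 (-0.01) and Irf2bpl (0.06) did not pass. Spi1, the gene of PU.1, was under the filter at 3.47, 2.94, 3.66 and 3.57 in mutants and 2.94, 2.94, 2.38 and 2.94 in controls.

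Irf8 rose beside many, but not all, markers of microglia and macrophages. Of 17 microglia markers with a probe set, 14 were tested, 10 rose and none fell, with a median of 2.08. The mean log2 level of the 17 markers ran from 7.91 to 8.65 in mutants and from 6.31 to 7.18 in controls. Ctss, a lysosomal protease, averaged 11.77 ± 0.30 in mutants and 9.51 ± 0.39 in controls, and the complement component C1qa 10.74 ± 0.44 in mutants, against 8.35 ± 0.31 in controls (SD, 4 arrays each, limma adjusted p at most 0.000596). Of the defining markers, Itgam was at the floor on all arrays and Tmem119 and Trem2 were under the filter. The 4 tested markers that did not pass were Gpr34 (2.12), P2ry12 (2.04), Olfml3 (0.72) and Laptm5 (0.34), with limma adjusted p at least 0.0651. The rises that passed ran from 1.06 in Csf1r to 3.31 in Aif1. Of 10 perivascular and other macrophage markers, 5 rose and none fell, with a list mean from 8.32 to 9.09 in mutants and from 7.34 to 8.06 in controls. Among them Ms4a7 averaged 7.10 ± 0.33 in mutants and 5.05 ± 0.30 in controls, and Adgre1 7.70 ± 0.38 in mutants, against 6.09 ± 0.27 in controls (SD, 4 arrays each, limma adjusted p at most 0.00284). The other rises in that list were Cd68 (2.21), Lyve1 (1.33) and Pf4 (0.96), with limma adjusted p at most 0.0229. Of the 5 markers that did not pass, Cd163 differed by 0.93 and Mrc1 by 0.68. These 2 are markers of perivascular macrophages, as are Lyve1 and Pf4, which rose. F13a1 differed by 1.08, Stab1 by -0.20 and Cbr2 by -0.93 (limma adjusted p at least 0.0907 for the 5). Mutant array 4 was the lowest mutant for Irf8 and for both lists, as it was for the other risen members. Control array 4 was the highest control for Irf8 and the microglia list, and control array 1 for the macrophage list. The highest mutant was array 3 for Irf8 and the macrophage list but array 1 for the microglia list. The part of these cells in the rise of Irf8 was not tested.

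**Figure D5:**
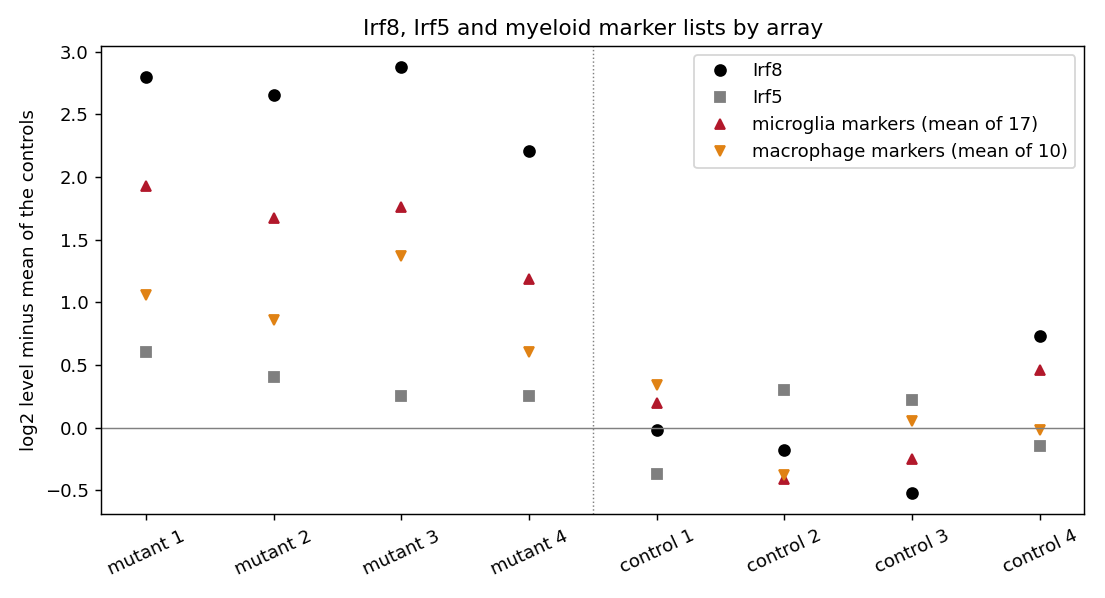
Log2 level of Irf8 and Irf5 and the mean level of the microglia and macrophage marker lists on each array, each set to the mean of the 4 control arrays. The mutant arrays of Irf8 and of the microglia list lie above all their control arrays, and Irf5 differs by 0.37.

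Most markers of other blood cells were dim, but S100a8, S100a9 and Zbtb46 were bright in both groups and Gzma on some mutant arrays only. Of 15 lymphocyte and dendritic cell markers with a probe set, 13 were under the filter, 9 of them at the floor on all arrays, Cd3e and Cd79a among them. Gzma, a protease of cytotoxic lymphocytes, is named here after its values were seen. It read 8.92, 8.0, 8.07 and 2.58 in mutants, against 2.30, 2.22, 2.22 and 2.53 in controls, and was not tested because 3 arrays, not 4, exceeded the filter level. It was high on mutant arrays 1 to 3, while mutant array 4 lay beside the controls. Nkg7, of natural killer and cytotoxic T cells, read 3.14, 2.22, 3.62 and 2.19 in mutants, against 2.19, 2.20, 2.19 and 2.18 in controls. The part of such cells in the rises of the members was not tested. The list mean ran from 2.92 to 3.68 in mutants and from 2.86 to 2.96 in controls. Neither gene tested passed: Zbtb46 averaged 7.35 ± 0.18 in mutants and 7.52 ± 0.15 in controls, and Cd79b 5.53 ± 0.60 in mutants, against 5.0 ± 0.46 in controls (SD, 4 arrays each, limma adjusted p at least 0.399). Of 8 neutrophil and monocyte markers, 3 were tested and none passed, 4 were at the floor, and the list mean ran from 4.02 to 4.35 in mutants and from 4.05 to 4.33 in controls. S100a8 averaged 9.15 ± 0.72 in mutants and 8.83 ± 0.46 in controls and S100a9 7.92 ± 0.56 in mutants, against 7.93 ± 0.57 in controls (SD, 4 arrays each).

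Ranked by how closely the profile over the 8 arrays matched, different genes stood nearest to each risen member. The measure was the root mean square of the log2 difference after each gene was set to its own mean, and it is a description with no test. That mean spans both groups, so the measure largely follows the size of the difference between mutant and control. Members with unlike differences therefore have unlike neighbours, and nearness does not show shared behaviour within a group. For Irf7 the nearest were Ifi27l2a (0.123), Ifit3 (0.321) and Epsti1 (0.331), and for Irf9 they were Tapbp (0.142), Samhd1 (0.148) and Dtx3l (0.161). For Irf1 they were Ifi35 (0.227), Ifitm1 (0.245) and Samd9l (0.271). For Irf8 they were Evi2a (0.262), C1qb (0.298) and C1qa (0.304), of which the C1q chains are in the microglia list.

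Markers of vessel cells were present: all 14 endothelial and all 14 pericyte and mural markers with a probe set were bright enough to test. So were all 15 neuron and glia markers, so this does not show how far the fragments were free of other brain cells. In the endothelial list 2 fell and none rose, with list means from 11.30 to 11.76 in mutants and from 11.68 to 12.03 in controls. The transcription factor Erg differed by -0.63 and the transporter Slco1a4 by -0.77 (limma adjusted p at most 0.0306). In the pericyte list Higd1b rose by 0.85 (limma adjusted p = 0.0410) and Pdgfrb, the gene that carries the substitution, differed by -1.01 (limma adjusted p = 0.00132), with 11.84 ± 0.21 in mutants, against 12.85 ± 0.05 in controls (SD, 4 arrays each). A substitution need not change the level of its transcript, so this checks no label. None of the neuron and glia markers passed the test of a difference. The brightest of these, Fabp7 and Slc1a3 of radial glia, averaged 14.65 ± 0.45 and 10.75 ± 0.58 in mutants, against 14.52 ± 0.20 and 10.51 ± 0.43 in controls (SD, 4 arrays each).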

How the data were processed

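Microvessel RNA from 8 newborn brains, 4 mutant and 4 control, was measured on 1-colour Affymetrix arrays from 6 ug of total RNA each, per the labels' protocols. The deposited table gives a log2 value for each probe set. The submitters' processing notes name GCRMA as the authors' method, with no version or options, and the log2 scale was read from the values, 2.18 to 16.49. GCRMA estimates background from probe sequence and normalizes by quantiles, so dim probe sets collect at a floor. Arrays have no depth; their number limits the precision.

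Probe sets with 1 symbol in the platform annotation (34958 of 45101) were kept, and each gene was represented by its probe set with the highest mean. Genes above log2 4 on fewer than 4 arrays were not tested, which left 11446. At the floor means within 0.5 of the lowest value on all arrays, and a fold is a lower bound against the filter level of 4 where all control arrays lay under it. Groups were compared with limma 3.58.1 (lmFit, eBayes; R 4.3.3), with no covariate and two-sided p-values adjusted by Benjamini-Hochberg; the script was tested on simulated data. Members, lists and pairs were chosen with earlier results of these data known. Named are all members, Pdgfrb, the 3 genes most like each risen member and, of the genes that passed, those of lowest p in each list (up to 3 per pathway list, 2 per marker list), or the 2 brightest where none passed; other names were chosen after their values were seen. The sources used here give no litter, day or scan date. By the mean of Y-linked genes, above log2 6 on 3 mutant and 2 control arrays, both groups held brains of both sexes in unequal number. Protein sequences were not used here.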

Additional observations from a re-analysis of the deposited data

Results flagged for a closer look

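The member probe sets, the genes of all lists, the genes of nearest profile and the pairs gave 307 sets of 4 arrays to examine. In 31 of these 1 array stood far from the other 3 by Dixon's test, where chance gives about 1 in 20, and none was a member or a pair. The fourth probe set of Irf3, at the floor on all arrays, is not among the 31, though it read 2.18, 2.29, 2.18 and 2.18 in mutants. That none was a member therefore holds only for values above the floor. That rate does not hold for flagged sets with tied values near the floor, such as Ifnb1 in mutants (2.18 on the other 3 arrays). There a small step makes 1 array stand out, so the excess of flags cannot be read from the count. On mutant array 4, 7 genes were low: Cybb (4.90), Gzma (2.58), P2ry12 (4.85), Pecam1 (9.09), Samhd1 (9.31), Stab1 (8.85) and Sting1 (5.94), while Ifnb1 was high (2.72). The other mutant arrays held Il6 (3.52, high) and Ticam1 (4.02, low) on array 1, and high values on array 2 of Ifna5 (2.84), Ikbke (4.44), Nlrc5 (8.57) and Tmem119 (4.0) and on array 3 of Socs1 (2.86). On control array 2, 5 genes were high, Il6 (2.99), Kcnj8 (11.77), Psmb9 (6.4), Rela (9.82) and Tap1 (5.73), and 3 were low, Aqp4 (8.56), Olig2 (5.81) and Snap25 (5.16). On control array 1 F13a1 (9.37) and Pecam1 (11.27) were high and Tlr7 (2.47) low. On control array 3 Nlrc5 (2.80) was high and Spi1 (2.38) low, and on control array 4 Ltf (3.33) and Olig1 (9.30) were high and Rsad2 (6.33) low.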

How the results depend on the processing

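The 4 risen members passed in all 18 alternatives run, with no member fallen: Irf7 ran from 6.71 to 7.0, Irf8 from 2.32 to 2.88, Irf1 from 1.98 to 2.28 and Irf9 from 1.73 to 2.03, with limma adjusted p up to 0.0182. Irf2 (0.13 to 0.29) and Irf5 (0.19 to 0.47) did not pass in any, Irf5 having no value under the stricter filter. Irf3 ran from -0.22 to 0.05 and turned positive with array weights, at 0.05. Leaving out 1 array gave 6.74 to 7.09 for Irf7 minus Irf3, 1.71 to 2.10 for Irf1 minus Irf2 and -1.69 to -0.70 for Irf9 minus Stat2. For Irf9 minus Stat2 the unadjusted exact permutation p was 0.0571 without mutant replicate 4. With the mean of the probe sets the difference was -1.34 (exact permutation p = 0.0857), and the other alternatives gave exact permutation p from 0.171 to 0.429. Same-numbered mutant and control arrays did not deviate together (correlations -0.084, -0.479, -0.201 and 0.303 over the tested genes), and none correlated best with its own number. With the replicate block 259 genes changed over the whole table, 38 of them lower, against 524 and 220 without it. Array weights gave 3158 (895 higher, 2263 lower). Genes lower were 135 without a filter, 115 with each array centred, 125 with every probe set tested singly and 142 with Y-linked genes as covariate. Leaving out 1 array gave 303 to 608 genes, 231 to 342 higher and 62 to 266 lower; without mutant replicate 3 there were 320, without control replicate 3 322 and without control replicate 4 303, and genes lower numbered 143 without mutant replicate 1, 89 without mutant replicate 3, 101, 106, 89 and 62 without control replicates 1, 2, 3 and 4. Of sensors and kinases 4 to 5 rose with 1 array left out, and with array weights 8 rose and 1 fell. Of receptors, Janus kinases and Stat2, 1 rose with the mean of the probe sets and with the Y-linked covariate and 2 with array weights; 1 fell with the stricter filter of 6, with trend and robust settings and with the Y-linked covariate, and 2 with array weights; with 1 array left out 0 to 1 rose and 0 to 1 fell. Of partners and regulators 5 rose and 2 fell with array weights. The known targets that rose numbered 12 to 14 with 1 array left out. The cause of these shifts was not tested. Dim values near the floor, such as those of Irf4, the interferon genes and the controls of Irf7, limit what can be resolved.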
